A study of Mus musculus with 4 samples.

Results

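The dense distal clusters are stretches of the mouse genome where Runx2 peaks of day 9 lay close together and away from promoters. They were defined by the positions of the day 9 peaks themselves. Peaks with their centre more than 2 kb from every transcription start site (TSS) of a protein-coding gene were called distal, distal peaks whose gap was at most 12.5 kb were stitched into groups, and groups of 6 or more peaks were kept. Of 60596 day 9 peaks, 45463 were distal and fell into 22531 stitched groups, of which 1212 were dense clusters. These clusters held 11567 member peaks, the largest 52 and the smallest 6. How many day 9 peaks a cluster holds, how close they lie and how far they are from a TSS are therefore consequences of the choice and are given as description only.

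The peaks come from chromatin immunoprecipitation followed by sequencing (ChIP-Seq) with a Runx2 antibody in MC3T3-E1 subclone 4 cells, a preosteoblast line from mouse calvaria of the C57BL/6 strain, for which the labels name no added gene or deletion. Cells were collected while they proliferated (day 0), deposited matrix (day 9) and mineralized (day 28), and differentiation was induced with ascorbic acid and beta-glycerophosphate. The line is 1 subclone in culture, and the antibody, the strain and the line were shared by all 3 groups. The authors pooled the 2 libraries of each time point before they called peaks, so each day has 1 list, no spread between replicates can be given and no test between days was made. The lists hold no read counts, so the number of reads behind a peak is not known here. The libraries of the proliferating cells were sequenced to the most raw reads and gave the shortest list. A peak that is missing from a list was not called at that day's depth.

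Runx2 is the transcription factor that directs mesenchymal precursors into the osteoblast lineage. With its partner Cbfb it binds DNA through the runt domain, at sites built around the core TGTGGT. Besides promoters it occupies distal elements in introns and between genes, and groups of closely spaced distal sites are a common feature of genes that define a cell type. Active distal elements often carry sites for several factors, among them AP-1, TEAD, C/EBP and E-box proteins.

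Of the 12 largest clusters, 8 are represented here by sequence, because these stretches show the Runx core in place. Each is the 101 bases around the centre of the highest-scoring member peak outside exons that had TGTGGT within 50 bp of its centre. The bases are read 5′ to 3′ from mm9 (NCBIM37), with every copy of TGTGGT or its complement ACCACA in capitals.
Kdm4b cluster, chr17:56598553-56598653, plus strand: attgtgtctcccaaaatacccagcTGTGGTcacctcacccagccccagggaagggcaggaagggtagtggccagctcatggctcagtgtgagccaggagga
Gm20388 and Rhou cluster, chr8:126128025-126128125, minus strand: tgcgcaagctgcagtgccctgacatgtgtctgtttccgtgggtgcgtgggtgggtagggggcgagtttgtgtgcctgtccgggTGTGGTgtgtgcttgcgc
Gm20388 cluster near Fam92b, chr8:122798940-122799040, plus strand: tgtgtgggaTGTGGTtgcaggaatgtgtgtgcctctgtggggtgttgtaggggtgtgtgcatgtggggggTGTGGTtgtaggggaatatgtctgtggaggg
Col5a1 cluster, chr2:27785076-27785176, plus strand: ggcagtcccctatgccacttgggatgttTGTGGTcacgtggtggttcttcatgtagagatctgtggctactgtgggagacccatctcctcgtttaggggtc
Rxra cluster, chr2:27630410-27630510, plus strand: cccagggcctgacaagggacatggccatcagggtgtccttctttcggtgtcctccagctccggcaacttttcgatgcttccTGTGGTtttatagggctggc
Pgs1 and Socs3 cluster, chr11:117758099-117758199, plus strand: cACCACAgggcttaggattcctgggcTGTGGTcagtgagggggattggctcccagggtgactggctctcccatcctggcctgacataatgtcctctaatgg
Ttc7 cluster, chr17:87767778-87767878, plus strand: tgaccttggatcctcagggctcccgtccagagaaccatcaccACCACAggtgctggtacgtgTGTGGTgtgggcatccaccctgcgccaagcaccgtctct
Bahcc1 cluster, chr11:120059741-120059841, plus strand: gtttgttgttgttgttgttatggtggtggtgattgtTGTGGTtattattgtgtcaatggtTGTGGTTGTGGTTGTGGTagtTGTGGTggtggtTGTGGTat
Peaks centred in an exon of a protein-coding gene were left out of this choice, so none of the 8 centres lay in one. The Kdm4b, Col5a1 and Ttc7 sequences and both from within Gm20388 were intronic, and the Rxra, Pgs1 and Bahcc1 sequences were intergenic. The Bahcc1 stretch held 6 copies of the core within a run of short repeats, the Ttc7 and Pgs1 stretches and the one near Fam92b held 2 copies, and the other 4 held 1. All 8 peaks overlapped a day 28 peak, and 5 of them also overlapped a day 0 peak. The exceptions at day 0 were the Kdm4b, Col5a1 and Bahcc1 peaks. The 8 peaks were chosen by score, and high-scoring peaks were often shared. Over all 1212 clusters, the strongest member peak overlapped a day 28 peak in 95.7% and a day 0 peak in 62.1%.

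The clusters differed widely in size. A total of 344 held 6 peaks, 485 held 7 to 9, 320 held 10 to 19 and 63 held 20 or more, and the median was 8 peaks. Their spans ran from 6.04 kb to 182.7 kb with a median of 33.0 kb. Peaks covered a median of 16.9% of an interval, and the covered share ranged from 6.10% to 71.3%. Neighbouring peaks of a cluster were a median of 2605 bp apart, 19.2% of the gaps were under 500 bp and 7.33% were over 10 kb. All intervals together covered 46.4 Mb, which is 1.75% of the 21 chromosomes.

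The threshold of 6 peaks cut a continuous distribution. There were 549 groups of 5 peaks with a median span of 19.1 kb, just outside, and 344 groups of 6 with a median span of 22.9 kb, just inside. Of the peaks in groups of 5, 28.8% overlapped a day 0 peak and 58.3% a day 28 peak. The corresponding shares in groups of 6 were 29.1% and 57.9%. The gap limit likewise fell where gaps were evenly spread, with 796 gaps in the last 1 kb below it and 796 in the first 1 kb above it.

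In the descriptions of single clusters, day 0 and day 28 peaks are counted like the members, as distal peaks with their centre in the interval, unless all peaks are named. The largest cluster lay at Kdm4b, a histone lysine demethylase gene, at chr17:56447575-56630254. It held 52 day 9 peaks over 182.7 kb and reached into Ptprs and Uhrf1, with 40 of the peaks in introns, 7 between genes and 5 in exons. The same interval held 5 distal peaks at day 0 and 17 at day 28, or 8 and 22 with those near a TSS. Only 4 of the 52 member peaks overlapped a day 0 peak and 16 overlapped a day 28 peak, both shares below the lower quartile of all clusters. The last 25% of the interval held 19 of the 52 member peaks, 9 of the 17 day 28 peaks and 4 of the 5 day 0 peaks.

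The clusters at Rxra and Col5a1 were neighbours on chromosome 2. Rxra encodes a retinoid X receptor, the partner of the vitamin D and retinoic acid receptors, and Col5a1 encodes a chain of type V collagen, a fibrillar collagen of bone matrix. The Rxra cluster (chr2:27522033-27674574) held 41 day 9 peaks, 14 day 0 peaks and 23 day 28 peaks. The Col5a1 cluster (chr2:27688378-27817118) held 43 day 9 peaks, 13 day 0 peaks and 20 day 28 peaks. Of the member peaks, 19 at Rxra and 16 at Col5a1 overlapped a day 0 peak, and 24 and 26 overlapped a day 28 peak. The intervals of these clusters did not touch, and no other protein-coding gene was overlapped by either.

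On chromosome 11, the cluster over Pgs1, Socs3 and Dnahc17 (chr11:117743572-117913891) held 41 day 9 peaks, 26 day 0 peaks and 29 day 28 peaks. Socs3, a feedback inhibitor of cytokine signalling, had the TSS nearest to its centre. With 29 day 0 peaks in all, it had more than any other cluster, and 26 of its 41 member peaks overlapped one. The Bahcc1 cluster (chr11:119995902-120178122) followed with 22 in all, and with 17 distal day 0 peaks beside 39 at day 9 and 26 at day 28. The cluster over Ube2v1, Tmem189 and Snai1 (chr2:167365681-167440845) had 20 day 0 peaks, more than its 18 day 28 peaks, and 27 at day 9. Snai1 encodes a zinc finger repressor of mesenchymal cells. The median over all clusters was 2 day 0 peaks.

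Also on chromosome 2, 37 day 9 peaks lay in a gene-free interval whose nearest TSS was that of Ptpn1, a tyrosine phosphatase (chr2:167574046-167703199). The nearest TSS was 119204 bp from the centre of this interval, and all 37 peaks were intergenic. It held 16 day 0 peaks and 24 day 28 peaks. The cluster at Ptgis, the prostacyclin synthase gene, held 36 day 9, 12 day 0 and 22 day 28 peaks (chr2:166987843-167117713). Within chr2:160-170 Mb there were 35 clusters in all.

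The remaining large clusters lay at Ttc7, at Ip6k3 and Lemd2, and at Sh3pxd2a and Neurl1a. The Ttc7 cluster (chr17:87675714-87805698) held 40 day 9 peaks and 33 of them were intronic. The Ip6k3 cluster (chr17:27277166-27387960) held 37, of which 24 were intergenic. The Sh3pxd2a cluster (chr19:47283344-47421059) held 37, of which 33 were intronic. Sh3pxd2a encodes a scaffold protein of podosomes. Their day 0 peaks numbered 7, 6 and 11 and their day 28 peaks 21, 18 and 22, in the same order.

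**Figure D1:**
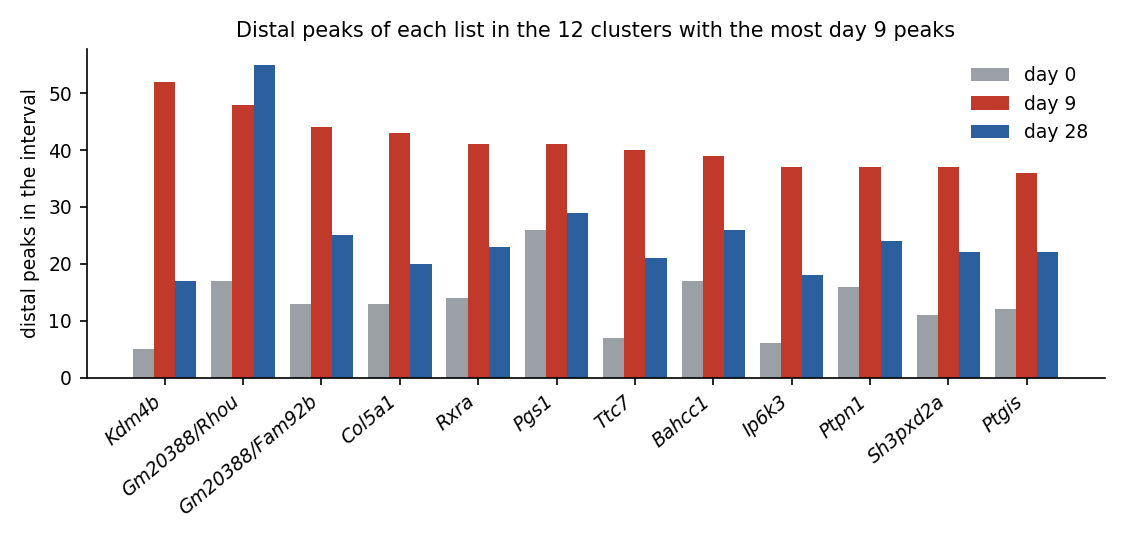
Number of distal peaks of each list (y axis, peaks with their centre in the interval and over 2 kb from a TSS) in the 12 clusters with the most day 9 peaks, which are named on the x axis by the gene they overlap or the nearest TSS. In 11 of the 12 the day 28 count lies between the day 0 and day 9 counts, and the exception is the repeated interval at Gm20388 and Rhou with 55 day 28 peaks and 48 day 9 peaks. The clusters were chosen by their day 9 counts, and the day 28 list is longer than the day 0 list.

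**Figure D2:**
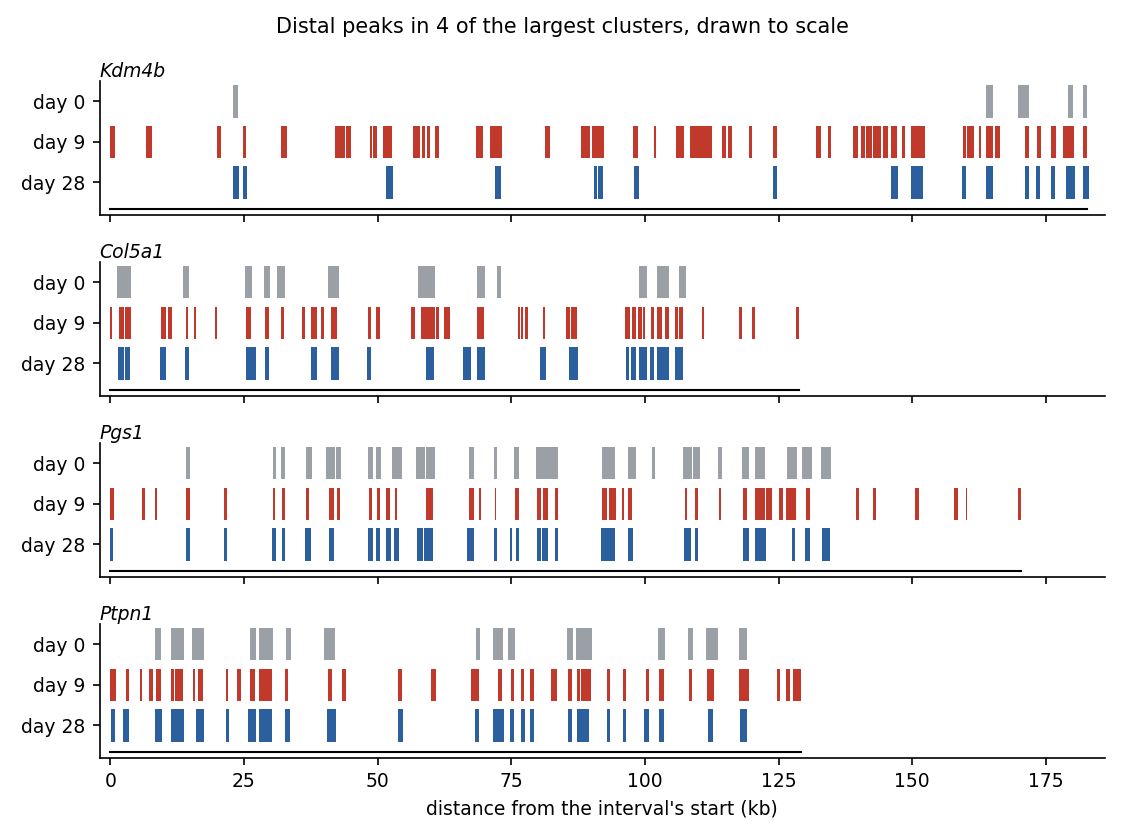
Positions of the distal peaks of days 0, 9 and 28 in the clusters at Kdm4b, Col5a1, Pgs1 and Ptpn1, as distance in kb from the start of each interval, which is drawn as a black line. Boxes show each peak's start and end (at least 0.3 kb wide, to be visible). Day 9 peaks are spread from end to end of each interval but cover 17.2% to 28.5% of it, and 55 of the 60 day 0 boxes and 85 of the 90 day 28 boxes overlap a day 9 box.

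Both large clusters on chromosome 8 lay within Gm20388, a gene model of 4.43 Mb that runs across many other genes and holds 30 of the clusters. The cluster that also overlapped Rhou (chr8:126061144-126182407) held 48 day 9 peaks, which covered 71.3% of it, the highest share of all clusters. It held 17 day 0 peaks and 55 day 28 peaks, and 46 of its 48 member peaks overlapped a day 28 peak. Of the 36-base words of this interval, 71.0% occurred more than once within it, against a median of 0.725% over all clusters. The other cluster, near Fam92b (chr8:122728696-122862298), held 44 day 9, 13 day 0 and 25 day 28 peaks, and 0.821% of its words were repeated.

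Repeated sequence of this kind was rare among the clusters. In 11 clusters with 132 member peaks more than 10% of the words were repeated, and the leading ones were a pair on chromosome 6 between Ezh2 and Pdia4. The cluster nearest to Ezh2 (chr6:47600127-47636644) had 95.4% repeated words, and all 9 of its member peaks overlapped a day 28 peak. Its interval held 3 day 28 peaks in all. The cluster nearest to Pdia4 (chr6:47688717-47728755) had 89.2% repeated words and 12 member peaks, all of which overlapped a day 28 peak. Its interval held 8 day 28 peaks in all. How the authors treated reads that map to several places is not given in the sources used here, and the part of repeats in these peaks was not tested. Without the 11 clusters, 1201 clusters with 11435 member peaks remained, and the share of member peaks that overlapped a day 28 peak was 58.4%.

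The densest clusters were small. The 3 clusters with the most peaks per length held 6, 7 and 6 peaks over 6.04, 8.24 and 7.14 kb. They lay at 1500010J02Rik, near Olfr1423, an olfactory receptor gene, and near Fermt2, which encodes the integrin adaptor kindlin-2. All 6 member peaks at 1500010J02Rik and all 7 near Olfr1423 overlapped a day 0 peak, and none of the 6 near Fermt2 did. The interval at 1500010J02Rik held only 2 day 0 peaks and the one near Olfr1423 only 3, so a day 0 peak could overlap several member peaks. The widest intervals were those at Kdm4b, Bahcc1 and Pgs1.

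At the clusters, day 0 and day 28 peaks lay largely where day 9 peaks were. The intervals held 3567 day 0 peaks (14.0% of that list, 95% interval 13.6% to 14.4%) and 7160 day 28 peaks (17.8%, 17.4% to 18.1%). Among distal peaks alone the shares were 20.3% at day 0 and 23.6% at day 28, against 25.4% at day 9, which the rule fixed. Of the distal day 0 peaks in the intervals, 6.07% overlapped no day 9 peak, against 37.7% of distal day 0 peaks elsewhere. At day 28 these shares were 5.76% and 26.3%. Peaks of day 9 cover a larger part of the intervals than of the rest of the genome by construction, so these shares are a description. Intervals given for a share are exact binomial (Clopper-Pearson) 95% intervals, which cover counting error only, and they are too narrow where neighbouring peaks are not independent.

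Distal peaks of the other days were also wider and ranked higher inside the intervals than elsewhere. The authors' score of a peak, which is -log10 of its MACS p-value multiplied by 10, was turned into a percentile of its own list. Inside the intervals the median percentile was 57.8 for day 0 peaks (95% interval 55.6 to 59.6) and 50.6 for day 28 peaks (49.6 to 51.5). For distal peaks outside it was 41.3 and 37.3. Their median width was 1052 bp inside and 807 bp outside at day 0, and 823 bp and 655 bp at day 28. The intervals were chosen for many day 9 peaks, and peaks inside overlapped one more often than those outside. These values are therefore a description as well.

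The number of clusters without any peak differed between the days. No day 0 peak had its centre in 180 clusters (14.9%, 12.9% to 17.0%), whereas 7 clusters (0.578%) were without a day 28 peak. Counting distal peaks alone, these numbers were 206 and 9. The day 0 list is shorter than the day 28 list (25457 against 40330 peaks), and empty clusters were not counted with lists of equal length. The ratio of day 28 to day 9 distal peaks was 0.568 inside the clusters and 0.627 outside. For day 0 the ratio was 0.272 inside and 0.364 outside. The intervals were chosen for many day 9 peaks, which lowers both ratios inside, so they are a description. In 57 clusters there were at least as many distal peaks at day 28 as at day 9, and in 7 at day 0.

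The same rule applied to the other lists found 105 dense distal clusters at day 0 and 501 at day 28, with 776 and 4099 peaks. Of the day 0 clusters, 79.0% (95% interval 70.0% to 86.4%) overlapped a day 9 cluster, as did 82.2% (78.6% to 85.5%) of the day 28 clusters. Of the 1212 day 9 clusters, 6.68% overlapped a dense cluster of day 0, 33.2% one of day 28 and 5.69% one of each. The lists differ in length (25457, 60596 and 40330 peaks at days 0, 9 and 28), and a longer list gives more groups that reach 6 peaks.

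Member peaks were more often shared with the other lists than distal peaks in smaller groups. At day 0, 30.1% of member peaks (95% interval 29.2% to 30.9%) overlapped a peak by at least 1 bp, against 24.0% (23.5% to 24.5%) of the other distal day 9 peaks and 25.5% of all distal day 9 peaks. At day 28 the shares were 58.6% (57.7% to 59.5%) and 47.9% (47.4% to 48.4%), with 50.6% over all distal day 9 peaks. With each list limited to its 25457 top-scoring peaks, the number in the shortest list, the share with day 0 was 50.3% for the 4664 member peaks left and 42.9% for the other distal peaks, and with day 28 it was 77.0% and 66.4%. The share with day 28 was 40.1% for single peaks, 49.6% for pairs, 55.9% for groups of 3 to 5 and 58.2%, 59.0% and 58.8% for clusters of 6 to 9, 10 to 19 and 20 or more. For day 0 the corresponding shares were 20.1%, 24.4%, 28.3%, 29.9%, 30.4% and 30.0%. Thus both shares were higher in larger groups up to about 6 peaks and hardly differed among the clusters themselves. Over the 1212 clusters, the number of peaks and the share with day 28 had a Spearman rho of 0.0060 and a Pearson r of 0.018, as a description of clusters that come from the same lists.

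Score and width of the day 9 peaks moved with these shares. Among day 9 peaks with a score percentile under 25, 23.0% of member peaks and 20.4% of other distal peaks overlapped a day 28 peak. The shares were 42.8% and 36.7% at percentiles of 25 to 50, 74.6% and 66.2% at 50 to 75 and 97.7% and 94.1% above. For day 0 they were 11.9% and 10.4%, 17.6% and 17.0%, 33.2% and 31.0%, and 60.3% and 52.8%, in the same order. The day 0 intervals overlapped in every class below a percentile of 75 and were apart only above it. Among peaks of up to 400 bp, 17.7% of member peaks and 18.2% of other distal peaks overlapped a day 0 peak, and from 400 to 600 bp 22.0% and 22.6%. The order was thus reversed in both of these classes, which hold 1715 and 4109 of the 11567 member peaks, with overlapping intervals. From 600 to 1000 bp the shares were 33.6% and 29.9%. Among peaks wider than 1 kb, 53.2% and 36.6% overlapped a day 0 peak, and 82.0% and 61.6% a day 28 peak. For day 28 the shares in the 3 narrower classes were 39.5% and 38.5%, 50.6% and 47.2%, and 64.8% and 56.7%, with overlapping intervals only up to 400 bp. Peaks wider than 1 kb made up 14.9% of member peaks and 6.44% of other distal peaks.

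**Figure D3:**
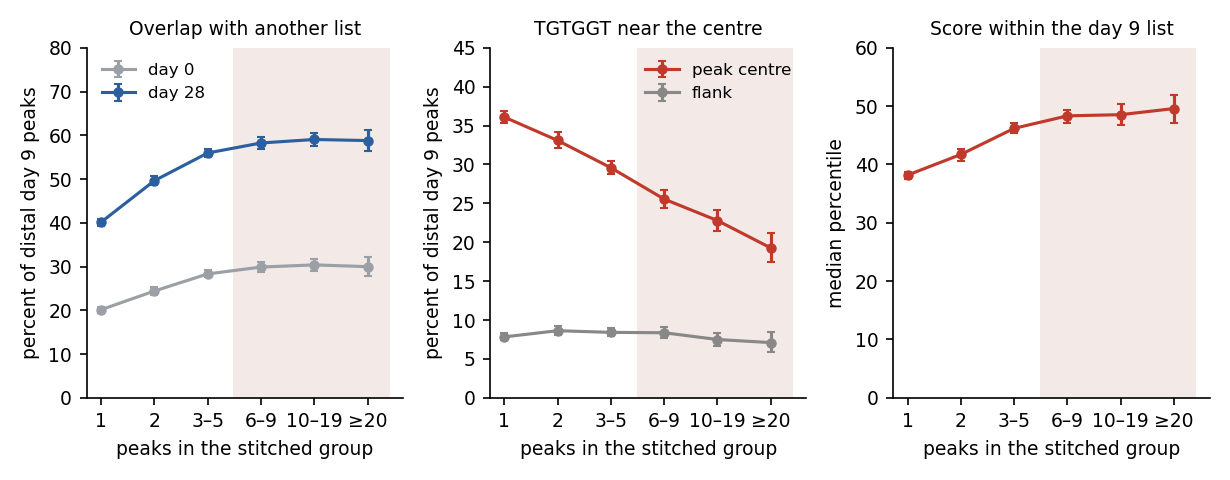
Distal day 9 peaks by the number of peaks in their stitched group (x axis), with the dense clusters shaded. The panels give the percent that overlap a day 0 or day 28 peak, the percent with TGTGGT in 101 bases at the peak centre and in the flank, and the median score percentile within the day 9 list, with exact binomial or distribution-free 95% intervals as bars. Overlap rises from single peaks to groups of 3 to 5 and then levels off, while TGTGGT at the centre falls from 36.1% to 19.3%.

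Taking both other days, 4485 member peaks (38.8%) were called at day 9 alone and 3604 (31.2%) at days 9 and 28. A further 3174 (27.4%) were found at all 3 days, and 304 (2.63%) at days 0 and 9 without day 28. For the other distal peaks the shares were 49.4%, 26.6%, 21.2% and 2.75%. Most clusters mixed these kinds of peak. Member peaks of 3 different kinds occurred in 722 clusters, of 2 kinds in 297, of all 4 in 176 and of a single kind in 17. A cluster of several peaks is likely to hold different kinds by counting alone, so these numbers are a description. Whether the kinds were mixed more or less than by random placement was not tested.

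Sharing varied strongly from cluster to cluster. The median cluster shared 28.6% of its member peaks with day 0 (quartiles 12.5% and 44.4%) and 60% with day 28 (quartiles 44.4% and 71.4%). In 206 clusters no member peak overlapped a day 0 peak, and in 11 none overlapped a day 28 peak. Every member peak overlapped a day 28 peak in 39 clusters and a day 0 peak in 9. Clusters that shared more with day 0 also shared more with day 28 (Spearman rho 0.48, Pearson r 0.49 over 1212 clusters), and both shares are taken over the same day 9 peaks.

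**Figure D4:**
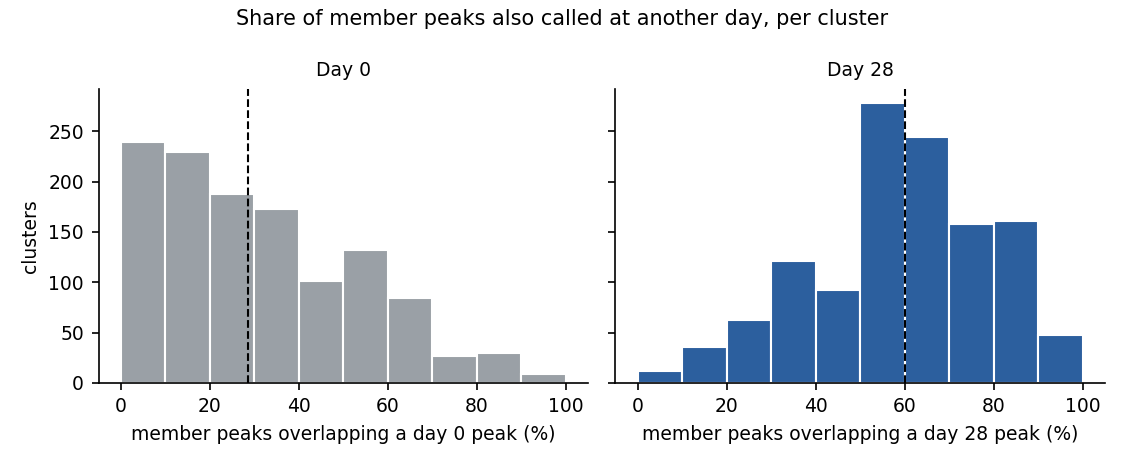
Histogram of clusters (y axis, number of clusters) by the percent of their member peaks that overlap a day 0 peak (left) or a day 28 peak (right), in steps of 10 percentage points, with the median as a dashed line. The medians are 28.6% and 60%, and 206 clusters share no member peak with day 0.

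The clusters at the extremes were of moderate size. Those without any shared day 28 peak were led by clusters of 7 peaks over Heatr7b1 and Hjurp (chr1:90116810-90157148), near Dyrk1a, a protein kinase gene (chr16:94935112-94963778), and over Telo2 and Ptx4 (chr17:25238085-25261327). The first of these had no peak at day 0 or day 28 in its interval, nor did the one near Dyrk1a, and the Telo2 interval held 1 at each day, near a TSS. Of the clusters in which every member peak overlapped a day 28 peak, the largest was the repeated interval near Pdia4 described above. It was followed by 11 intronic peaks within Scube1, which encodes a secreted EGF-domain protein (chr15:83482736-83526108), and by 10 intergenic peaks near Col6a2, a collagen VI gene (chr10:76094842-76135133). At Scube1, 4 of the 11 member peaks overlapped a day 0 peak, and near Col6a2 6 of the 10 did.

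Within a cluster the strongest and weakest peaks lay far apart in score. In a group of several peaks this is likely by counting alone, so the values are a description. The strongest peak of a cluster had a median percentile of 92.1 in the day 9 list (95% interval 91.3 to 92.8), and the weakest one a median of 7.96 (7.21 to 8.55). The strongest peak overlapped a day 28 peak in 95.7% of the clusters and a day 0 peak in 62.1%. For the weakest peak these shares were 24.2% and 13.8%. In 682 clusters (56.3%) at least 1 peak was in the top 10% of the list, which is more likely the more peaks a group holds. Taken peak by peak, 10.2% of member peaks and 4.95% of the other distal peaks were in the top 10%. Over all member peaks the median percentile was 48.5 (47.6 to 49.4), against 41.7 (41.1 to 42.1) for the other distal peaks. It was 38.2 for single peaks and 49.6 for clusters of 20 or more. A score of 3100 was shared by 607 member peaks, which therefore have no order among themselves.

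The Runx core TGTGGT was less frequent at the centres of member peaks than of other distal peaks. It was searched on both strands in the 101 bases around the centre and, for comparison, in the 101 bases from 450 to 550 bp upstream of it on the plus strand. Of the member peaks, 23.7% held it at the centre (95% interval 22.9% to 24.4%) and 7.88% in the flank (7.39% to 8.38%). Of the other distal peaks, 33.1% (32.6% to 33.6%) held it at the centre and 8.23% (7.93% to 8.52%) in the flank. The share over all distal day 9 peaks was 30.7%. It fell with the size of the group, from 36.1% for single peaks to 33.1% for pairs, 29.6% for groups of 3 to 5, and 25.5%, 22.8% and 19.3% for clusters of 6 to 9, 10 to 19 and 20 or more. For comparison, 9.28% of the day 9 peaks within 2 kb of a TSS held it.

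The width of the peaks moved with this share, and the lists give no summits, from which the centre of a wide peak may differ. Member peaks had a median width of 598 bp and the other distal peaks 487 bp. Among peaks of up to 400 bp, 34.7% of member peaks (32.4% to 37.0%) and 43.0% of the other distal peaks (42.1% to 44.0%) held TGTGGT at the centre. From 400 to 600 bp the shares were 28.1% and 34.7%, from 600 to 1000 bp 17.9% and 22.8%, and above 1000 bp 15.5% and 17.1%, where the intervals overlapped. Over the whole peak rather than its centre, 64.7% of member peaks and 65.1% of other distal peaks held the core, with 1.91 and 3.14 copies per kb of peak. Within the clusters, 26.2% of the strongest and 23.8% of the weakest peaks held it at the centre.

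GC content was higher at member peaks, at a median of 53.5% of the 501 bp around the centre against 49.9% for the other distal peaks. It was 48.7% for single peaks and 55.3% in clusters of 20 or more. Over whole intervals the clusters ranged from 40.1% to 58.6% GC, and the share of member peaks with the core had a Spearman rho of -0.21 (Pearson r -0.22) with this content over the 1212 clusters. The part of GC content in the motif shares was not tested.

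The other motifs differed less. The AP-1 site TGANTCA lay at 4.11% of member peak centres and in 2.71% of their flanks, and at 4.32% of all distal day 9 peaks. The TEAD site GGAATG lay at 6.67% of member centres and in 5.16% of flanks, against 6.33% of all distal peaks. The C/EBP pattern TTGCNNAA was found at 2.61% of member centres and in 3.17% of flanks, and at 2.95% of all distal peaks. The E-box CANNTG, a short pattern that occurs often by its length alone, was at 46.7% of member centres and in 43.6% of flanks, and at 45.9% of all distal peaks. At the centres, the intervals of member peaks and of other distal peaks overlapped for each of these 4 patterns. In the flanks the intervals were apart for TTGCNNAA (2.86% to 3.51% for member peaks and 3.72% to 4.14% for other distal peaks) and for CANNTG (42.7% to 44.5% and 40.9% to 41.9%).

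Introns held 51.4% of the member peaks, intergenic sequence 42.0% and exons 6.62%. For the other distal peaks the shares were 45.4%, 49.5% and 5.17%. Without the clusters over Gm20388, whose length makes most of that region intronic, 49.7% of member peaks were intronic and 43.5% intergenic. Of the 1212 clusters, 921 (76.0%) overlapped at least 1 protein-coding gene, 274 overlapped 2 or more and 291 none. A total of 382 clusters (31.5%) lay wholly within a single gene body, and 353 of these were in genes other than Gm20388. The host genes of the 382 had a median length of 137.2 kb, against 15.1 kb for all protein-coding genes. A gene that holds a whole cluster must be longer than the cluster, so longer hosts follow from the choice. Because only distal peaks were stitched, an interval can run across a promoter, and 409 clusters (33.7%) contained a protein-coding TSS.

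The clusters were unevenly spread over the chromosomes. Chromosome 17 had 106 clusters, or 11.1 per 10 Mb, and chromosome 11 had 124, or 10.2 per 10 Mb, whereas chromosome 3 had 22, or 1.38 per 10 Mb. Chromosome X held 3 and chromosome Y none. In the same way, 39.7% of the distal day 9 peaks of chromosome 17 were members, but 9.91% of those of chromosome 3 and 6.37% of those of chromosome X. Within windows of 10 Mb the count was highest at chr8:120-130 Mb with 44 clusters and 545 member peaks, followed by chr2:160-170 Mb with 35. The 10 windows with the most clusters held 271 of them (22.4%), together with 7.60% of the protein-coding genes and 11.9% of the day 9 peaks. These windows held 9.85% of the day 0 peaks and 10.6% of the day 28 peaks. Over 276 windows with a gene, clusters and genes per window had a Spearman rho of 0.66 and a Pearson r of 0.55, and 85 windows had no cluster. The copy number of these regions in MC3T3-E1 cells was not analysed here, and its part in the counts was not tested.

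Genes were linked to a cluster where it overlapped their body or where they had the TSS nearest to its centre. In this way 1538 of 22359 protein-coding genes (6.88%) were linked, 1202 of them through their body. Linked genes were longer, with a median of 29.1 kb against 14.4 kb for the others. Of genes up to 20 kb 4.80% were linked, of those from 20 to 100 kb 8.76% and of longer genes 12.4%, so the share was higher for longer genes. The 12 gene lists of bone and general biology used here hold 370 annotated genes, of which 91 were linked. Of these 91, 15 were linked to 2 or 3 clusters, and the counts given for a gene are those of its cluster with the most day 9 peaks. No test was made on the lists, and their shares are given with counting intervals beside the 6.88% of all genes.

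**Figure D5:**
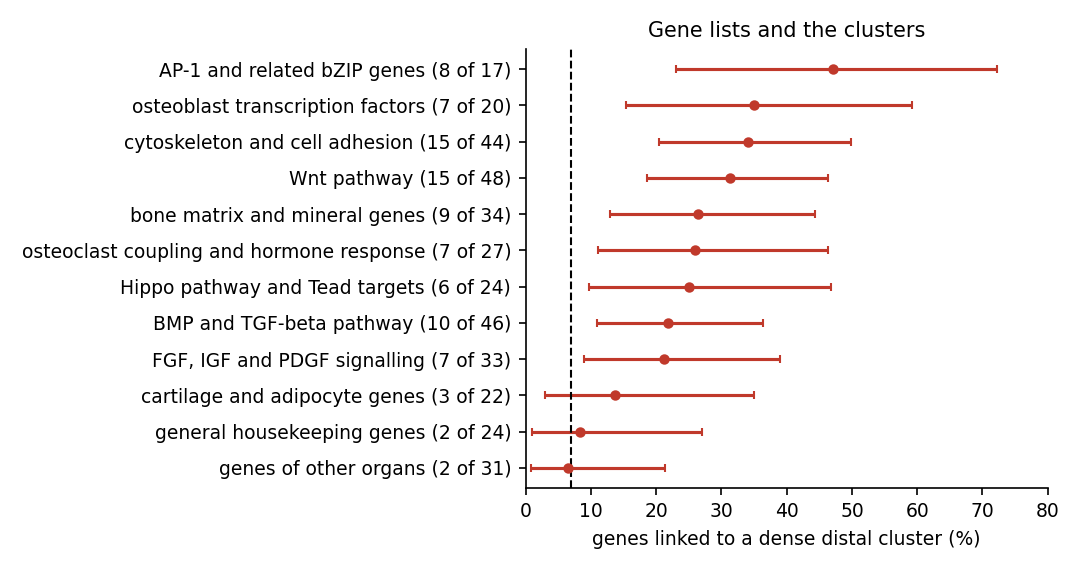
Percent of the genes of each list that were linked to a dense distal cluster (points, with exact binomial 95% intervals as bars, and the number linked of the number annotated in brackets). The dashed line marks the 6.88% of all protein-coding genes. The lists range from 6.45% for genes of other organs to 47.1% for AP-1 and related bZIP genes.

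Of 20 osteoblast transcription factors 7 were linked (35.0%, 95% interval 15.4% to 59.2%). Prrx2, a homeobox gene of mesenchyme, had the most peaks, with 16 at day 9 of which 11 overlapped a day 0 peak and 12 a day 28 peak. The cluster at Dlx3, a homeobox gene of bone and skin that shares it with Dlx4, held 10 day 9 peaks, and 2 and 6 of these were shared with days 0 and 28. Sp7 (osterix), which is required for osteoblast formation downstream of Runx2, had a cluster of 9 peaks with 5 shared with day 0 and 8 with day 28. Alx4, a homeobox gene of skull development, had 7 peaks with 6 and 5 shared. Runx2 itself was linked to a cluster of 6 peaks, the minimum, with 3 and 4 shared.

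Among bone matrix and mineral genes 9 of 34 were linked (26.5%, 12.9% to 44.4%). After Col5a1, they were led by Sparc (osteonectin) with 18 day 9 peaks and Col1a1, the main chain of type I collagen, with 17. The Sparc cluster held 8 day 0 and 8 day 28 peaks. The Col1a1 cluster held 6 and 12, and 14 of its 17 member peaks overlapped a day 28 peak. A second cluster at Col1a1 held 11 day 9 peaks with 3 and 4, and a second one at Col5a1 held 9 with none at day 0 and 3 at day 28. Alpl, the alkaline phosphatase that frees phosphate for mineral, had a cluster of 15 peaks, with 5 peaks at day 0 and 12 at day 28.

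In the Wnt pathway 15 of 48 genes were linked (31.3%, 18.7% to 46.3%). The ligand gene Wnt7b had 26 day 9 peaks with 1 day 0 and 13 day 28 peaks. The Wnt effector Tcf7l2 had 17 with 7 and 14. Kremen1, a receptor for the Wnt inhibitor Dkk1, had 15 with none at day 0 and 7 at day 28, in a cluster shared with Emid1. Wnt7b and Kremen1 each had a second cluster of 6 day 9 peaks, which held 2 day 0 and 4 day 28 peaks at Wnt7b and 4 and 3 at Kremen1, where it is shared with Znrf3. The coreceptor gene Lrp5 had 12 with 8 and 11, so low day 0 counts were not shared by all Wnt genes.

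In the list of FGF, IGF and PDGF signalling 7 of 33 genes were linked (21.2%, 8.98% to 38.9%), among them 3 FGF receptors. Fgfr2 had 19 day 9 peaks with 4 at day 0 and 11 at day 28, and 2 further clusters of 8 and 7 day 9 peaks with 4 day 0 peaks each. Fgfr3 had 15 with none at day 0 and 10 at day 28. Fgfr1 had 9 with 1 and 4. Pdgfb, a growth factor of mesenchymal cells, had 11 with 3 and 4.

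In the BMP and TGF-beta pathway 10 of 46 genes were linked (21.7%, 10.9% to 36.4%), and these included intracellular brakes of the pathway. The corepressor gene Ski lay in a cluster of 20 peaks together with Morn1, with 7 day 0 and 16 day 28 peaks. The inhibitory Smad6 had 19 with 9 and 17, and the signal transducer Smad3 had 16 with 6 and 8. Smad3 had 2 further clusters, of 8 day 9 peaks with 4 at each of the other days and of 6 with 3 and 5. Id1, an early BMP target, lay in a cluster of 11 with H13, with 7 peaks at each of the other days.

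Hormone and osteoclast coupling genes were linked in 7 of 27 cases (25.9%, 11.1% to 46.3%). Besides Rxra they were led by Pth1r, the parathyroid hormone receptor, with 28 day 9, 5 day 0 and 14 day 28 peaks. Lif, a cytokine of the interleukin 6 family, had 18 with 8 and 13. The retinoic acid receptor Rara had 12 with 5 and 8. The thyroid hormone receptor Thra had 12 with 5 and 7, and the vitamin D receptor Vdr, which shared its cluster with Hdac7, had 12 with 8 and 9.

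Of the Hippo pathway and Tead targets 6 of 24 were linked (25%, 9.77% to 46.7%). Vgll4, a cofactor that competes for Tead proteins, lay with Atg7 in a cluster of 30 peaks with 11 at day 0 and 17 at day 28. Ptpn14, Stk4 and Tead3 each had 11 day 9 peaks, with 1, 3 and 3 at day 0. Second clusters held 8 day 9 peaks with 1 at day 0 at Ptpn14 and 7 with 1 at Vgll4. Among AP-1 and related bZIP genes 8 of 17 were linked (47.1%, 23.0% to 72.2%), although the list's median gene length was 8.24 kb. Cebpb had 16 peaks with 6 at day 0 and 7 at day 28, Fosb 11 with 7 and 9, and Fos 10 with 5 and 6. Cebpa, by contrast, had 11 with none at day 0 and 4 at day 28.

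Cytoskeleton and adhesion genes were linked in 15 of 44 cases (34.1%, 20.5% to 49.9%). Cnn2, a calponin, lay in a cluster of 22 peaks named for Arid3a, with 5 at day 0 and 6 at day 28. The focal adhesion gene Tns1 had 20 with 2 and 14, and a second cluster of 6 with 1 and 5. The integrin gene Itgb3 had 18 with 4 and 11, and the myosin kinase gene Mylk had 18 with 7 and 14 and a second cluster of 9 with 3 and 4.

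Lists chosen for contrast had lower shares. Of cartilage and adipocyte genes 3 of 22 were linked (13.6%, 2.91% to 34.9%), namely Zfp423 with 13 peaks (and 7 and 6 in 2 further clusters), Comp with 9 and Sox6 with 8. Of the genes of other organs 2 of 31 were linked (6.45%, 0.791% to 21.4%), the myelin gene Mbp with 11 peaks and the keratin gene Krt5 with 7. Of the general housekeeping genes 2 of 24 were linked (8.33%, 1.03% to 27.0%). The median length of the genes in these lists was 18.4, 9.07 and 8.29 kb, against 42.6 kb for the osteoblast transcription factors and 73.4 kb for the cytoskeleton list.

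Clusters also contained genes of small RNAs. Of 1577 annotated miRNA genes 63 lay in 53 clusters, and 24 of them carry a Mir name. For comparison, 54 of 1273 annotated lincRNA genes lay in clusters, so the miRNA genes are named only as contents of the intervals. The clusters with such a gene and the most day 9 peaks, which were chosen after their values were seen, lay near Klf14, at Rab11fip4 and at Ppara. The cluster near Klf14 (chr6:30960293-31098674) held Mir29a and Mir29b-1 among 35 day 9, 16 day 0 and 19 day 28 peaks. The miR-29 family represses collagens and other matrix genes. The cluster at Ppara (chr15:85464784-85541236) held the let-7 genes Mirlet7b and Mirlet7c-2 among 21 day 9, 8 day 0 and 17 day 28 peaks. The mature forms of these miRNAs are shown because the genes of each pair share a seed (bases 2 to 8, in capitals), as RefSeq gives them (20 of the 24 genes were matched by symbol to its GRCm38.p6 table).
mmu-miR-29a-3p: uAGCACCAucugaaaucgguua
mmu-miR-29b-3p: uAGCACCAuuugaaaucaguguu
mmu-let-7b-5p: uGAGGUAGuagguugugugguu
mmu-let-7c-5p: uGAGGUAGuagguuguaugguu
The Rab11fip4 cluster (chr11:79456115-79553282) held Mir193 and Mir365-2 among 28 day 9, 8 day 0 and 16 day 28 peaks. A day 28 peak was overlapped by 23 of the 35 member peaks near Klf14, 16 of 21 at Ppara and 18 of 28 at Rab11fip4. Near Klf14, 22 of the 35 member peaks overlapped a day 0 peak, against 9 of 21 and 9 of 28 in the others. A lincRNA gene lay wholly within 49 of the 1212 clusters (4.04%), which held 54 of the 1273 annotated lincRNA genes.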

How the data were processed

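Runx2 ChIP-Seq was carried out in MC3T3-E1 cells at days 0, 9 and 28, with 2 libraries per time point. The authors mapped the reads to mm9, combined the libraries of a day, ran MACS on them against input DNA and retained peaks with a p-value of at most 1e-10. The submitters' processing notes name CASAVA 1.6, Bowtie 0.12.8 and MACS 1.4.1. The deposited lists give the start, end and score of each peak, and the authors' score is -log10 of the MACS p-value multiplied by 10. It depends on depth and was compared only within a list. Depth cannot be read from the lists, so precision is given as counting intervals. According to the paper the input DNA came from day 9 cells, so no input of day 0 or day 28 is described. The input libraries were not analysed here.

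The build of the lists was checked against NCBIM37, and GENCODE M1 gave 51710 protein-coding transcripts of 22359 genes. Distal day 9 peaks (centre over 2 kb from a TSS) were stitched at gaps of up to 12.5 kb, and groups of 6 or more were kept. Day 0 and day 28 peaks were placed in the intervals by their centres. Shares carry exact binomial and medians distribution-free 95% intervals. With 1 pooled list per day and clusters chosen from the day 9 list, no test was made.

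Named clusters are the 12 with the most day 9 peaks, the 3 widest, the 3 densest, the 4 with the most day 0 peaks, the 3 largest of those in which no, or every, member peak overlapped a day 28 peak, and up to 4 genes for each of 12 gene lists. The values of the linked housekeeping genes are not reported here. Further genes, the repeated intervals and the miRNA genes were named after their values were seen. The clusters and lists were chosen with earlier results of these data known. A repeated word is a run of 36 bases that occurs more than once in an interval, on either strand. Alternatives covered the gap, the distance from a TSS, the number of peaks, the p-value, breaks at a TSS, the TSS set, the overlap, list length, the motif window and the link to genes. Leaving out repeated clusters and joining peaks under 500 bp apart were added after seeing the data.

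Python 3.11.15, NumPy 2.4.6, SciPy 1.17.1, pandas 2.3.3, pyfaidx 0.9.0.4 and Matplotlib 3.10.9 were used, and the procedures were tested on simulated data.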

Additional observations from a re-analysis of the deposited data

How the results depend on the processing

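Of 13 alternatives, 9 were run for all of the values below, 2 of these chosen after seeing the data, and 4 for the value they bear on alone (overlap and list length for the shares with other days, the motif window, and the link to genes). With a gap of 5 kb there were 424 clusters with 3357 member peaks, 459 genes, 888 day 0 and 1882 day 28 peaks. Shares with days 0 and 28 were then 32.8% and 61.9%, the core motif 20.5% and the median percentile 51.2. With a gap of 25 kb there were 1822 clusters, 21720 member peaks, 3368 genes, 7517 day 0 and 14543 day 28 peaks, with shares of 28.6% and 56.8%, motif 26.2% and percentile 47.0. At a p-value of 1e-20 there were 381 clusters, 3085 member peaks, 440 genes, 1009 day 0 and 2109 day 28 peaks, with shares of 33.8% and 66.9%, motif 22.3% and percentile 70.7. With 8 or more peaks there were 646 clusters, 891 genes and a motif share of 22.7%. The share with day 28 was 59.8% at 5 kb from a TSS and also with clusters broken at a TSS, and 57.5% with an overlap of at least 50% of the shorter peak. With equal numbers of top-scoring peaks the shares were 50.3% and 77.0%. The motif was in 64.7% of whole peaks. With peaks under 500 bp apart joined, the motif share was 22.6% and the percentile 51.5, and 894 clusters remained in number. Under the 12 settings compared for each, including the one reported, member peaks had a higher share with day 0 (by 5.16 to 7.87 percentage points) and with day 28 (by 9.88 to 12.3) than other distal peaks, and a lower share of the core motif, although over whole peaks the shares were 64.7% and 65.1%. No paired analysis was possible because each time point has 1 pooled list. Without replicates or reads per peak, a peak absent from a list cannot be told apart from one below the detection limit of that day, and member counts depend on how the peak caller split wide enrichment.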
